A study of Mus musculus with 4 samples.

Results

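The 8 genes described here encode receptors for peptide hormones and a lipid signal: the relaxin receptor Rxfp1, the angiotensin II receptors Agtr1a and Agtr2, the oxytocin receptor Oxtr, the endothelin receptors Ednra and Ednrb, the anti-Müllerian hormone receptor Amhr2 and the cannabinoid receptor Cnr1. They were taken by gene symbol from the 31053 genes in the count matrices, and all 8 were found. RNA was counted cell by cell in oviducts and uteri of untreated wild type CD1 (ICR, Strain Code:022) mice at postnatal day 3. Each organ had 2 libraries, each library came from a pool of 3 or 4 neonates, and both organs came from the same neonates. No animal was sampled alone, so the spread between the 2 libraries of an organ is a spread between pools. The genes were chosen by their measured levels by cell class and organ in these same libraries, so those levels and organ differences are described and not tested. P-values, given for other genes, weigh the organ difference against the spread between these pooled libraries. The fit holds organ only and leaves out the pairing of organs by shared neonates. The labels do not say which replicate number holds which pool.

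All of these are G protein-coupled receptors except Amhr2, a serine/threonine kinase. Relaxin acting on Rxfp1 raises cyclic AMP and loosens connective tissue in the reproductive tract. Angiotensin II raises calcium and vessel tone through Agtr1a, while Agtr2 is best known from fetal mesenchyme. Oxytocin contracts the uterine muscle at birth. Endothelins contract vascular and visceral muscle through Ednra and Ednrb, and Ednrb on endothelium also clears the peptide. Anti-Müllerian hormone from the fetal testis removes the Müllerian duct, which in females becomes the oviduct and uterus, through Amhr2 in the mesenchyme around the duct. Cnr1 binds the endocannabinoids anandamide and 2-arachidonoylglycerol.

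In GENCODE M21, which uses the GRCm38 (mm10) build, all 8 are protein-coding genes, and no annotated gene that is in the files overlaps them on the same strand. On the opposite strand 1 gene, 4933431K23Rik, overlaps Ednra. Rxfp1 (ENSMUSG00000034009) spans chr3:79641611-79737880 on the minus strand, Agtr1a (ENSMUSG00000049115) chr13:30336441-30382867 on the plus strand and Agtr2 (ENSMUSG00000068122) chrX:21484544-21489164 on the plus strand. Oxtr (ENSMUSG00000049112) spans chr6:112473683-112489943, Ednra (ENSMUSG00000031616) chr8:77663031-77724464 and Ednrb (ENSMUSG00000022122) chr14:103814625-103844402, all 3 on the minus strand. Amhr2 (ENSMUSG00000023047) spans chr15:102445367-102454633 and Cnr1 (ENSMUSG00000044288) chr4:33924593-33948831, both on the plus strand.

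Sequence upstream of the start site was taken from RefSeq (GRCm38.p6), where 6 of the 8 genes had an entry. It is printed for Agtr2, Amhr2 and Cnr1 because the results on these 3 turn on separate groups of mesenchymal cells. The stretches lie at chrX:21484374-21484543, chr15:102445117-102445366 and chr4:33924014-33924263, all on the plus strand. Each runs 5′ to 3′. Those of Agtr2 and Amhr2 end where the GENCODE gene begins, and that of Cnr1 ends at a RefSeq start upstream of it. Capitals mark matches on either strand to 4 short motifs.
Agtr2: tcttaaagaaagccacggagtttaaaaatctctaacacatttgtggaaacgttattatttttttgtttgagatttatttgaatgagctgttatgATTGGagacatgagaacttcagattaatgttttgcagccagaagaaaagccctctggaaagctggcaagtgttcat
Amhr2: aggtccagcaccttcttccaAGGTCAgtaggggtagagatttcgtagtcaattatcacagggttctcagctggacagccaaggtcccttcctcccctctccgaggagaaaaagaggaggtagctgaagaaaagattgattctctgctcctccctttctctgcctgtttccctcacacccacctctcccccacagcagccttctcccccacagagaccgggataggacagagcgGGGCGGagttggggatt
Cnr1: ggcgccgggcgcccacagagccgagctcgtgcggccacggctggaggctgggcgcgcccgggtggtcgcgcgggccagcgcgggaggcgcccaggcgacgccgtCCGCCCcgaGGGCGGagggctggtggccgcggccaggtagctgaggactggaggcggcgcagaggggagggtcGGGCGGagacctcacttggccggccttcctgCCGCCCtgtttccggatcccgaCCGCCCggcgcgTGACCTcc
The TATA box was searched as TATAAA, which 12.4% of 32851 mouse promoters hold in the 250 bases before the start on either strand. The GC box was searched as GGGCGG, held by 32.7% of them. The nuclear receptor half-site was searched as AGGTCA, held by 14.02%. The CCAAT box was held by 33.8%, and no 2 matches printed here overlap. The Agtr2 stretch held 1 CCAAT box, on the other strand, 156 bases before the RefSeq start, which lies 80 bases inside the GENCODE gene. The Amhr2 stretch held 1 half-site, 230 bases before the start, and 1 GC box. The Cnr1 stretch, the first of 3 RefSeq entries for the gene, held 5 GC boxes and 1 half-site and was 79.2% G or C, against 38.4% over 250 bases for Agtr2 and a median of 52.4% over all promoters. The other 2 Cnr1 entries, with 68.8% and 49.2% G or C, held 0 matches. A match is only a run of letters and was not tested for binding.

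The libraries held 5716 to 7808 called barcodes and 61117726 to 114419939 UMIs (unique molecular identifiers, 1 per captured RNA molecule), and 3872 to 6488 cells passed the filters. Library pairs shared 8 to 15 barcodes, which stayed in. Cells were sorted into classes in silico by marker genes, and 7 classes were described, each with at least 20 cells in every library: mesenchyme, smooth muscle, pericytes (the mural cells of small vessels), mesothelium (the outer lining), blood endothelium, epithelium and myeloid cells. Erythroid cells, at 88 to 425 per library, were left out because free RNA could supply much of their UMIs. The labels name mesenchymal and epithelial cells. Each class carried its own markers, with summed levels of 2887 to 16427 CPM, where CPM is a gene's UMIs per 1000000 UMIs of its class in a library. The mesenchyme list moved with the organ within mesenchyme, at 7933 and 8299 CPM in oviduct and 3352 and 3315 CPM in uterus, while smooth muscle markers there were level at 1079 to 1257 CPM. The ovarian granulosa list (7 markers) also moved, at 130.03 and 139.9 CPM in oviduct and 72.1 and 63.4 CPM in uterine mesenchyme, and at 162.6 and 172.8 CPM and 44.2 and 50.3 CPM in smooth muscle. Most of it was Foxl2, and Amh was at 0.229 CPM or below in both classes. In mesenchyme Inhba, Hsd17b1 and Gata4 were also higher in oviduct, with Gata4 at 31 and 23 UMIs against 0 and 0. Inha was level there at 3.55 to 4.05 CPM. The oviduct libraries also held 11 and 5 cells gated as granulosa and 1 and 1 as oocytes, against 0 in uterus. Those cells entered none of the classes described. The adipocyte list (5 markers) was at 105.4 and 102.6 CPM in oviduct and 9.97 and 12.5 CPM in uterine mesenchyme, and at 47.9 and 51.3 CPM and 9.10 and 10.3 CPM in smooth muscle. Nearly all of it was Lpl, and Adipoq was at 0.153 CPM or below. Epithelial markers in smooth muscle were at 107.5 and 91.9 CPM in oviduct and 182.0 and 189.0 CPM in uterus. In mesothelium the mesenchyme list exceeded the class's own, at 6004 and 5268 CPM in oviduct and 9031 and 7599 CPM in uterus. In pericytes of oviduct replicate 1 the smooth muscle list, at 4415 CPM, exceeded the pericyte list, at 4263 CPM. In uterine smooth muscle the mesenchyme list was at 3620 and 3280 CPM, close to its level in uterine mesenchyme. Of the smooth muscle cells, 49.5% to 65.0% per library lay in clusters named smooth muscle. The part of these markers in the organ differences was not tested. RNA released from other cells was estimated to supply at most 0.392% to 10.8% of the UMIs in these classes. This bound came from the gene with the lowest limit, haemoglobin genes left out. In mesenchyme of uterus replicate 2 haemoglobin gave 0.425%, above the bound of 0.392%. For a single receptor with few UMIs in a class the bound reached 100%. Mesenchyme and smooth muscle formed a continuum: 1602 cells between the 2 score ranges were left out. Oviduct and uterine stroma fell mostly into different Leiden clusters (groups of similar cells, built without the 8 receptors), and 80 and 66 mesenchymal cells of the oviduct libraries lay in clusters held at 90% or more by the uterus. Of those cells, 0 had a barcode shared with a uterine library.

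The receptors differed in the class or classes where they stood highest. Ednra and Agtr1a were highest in pericytes, Ednrb in myeloid cells and pericytes. Amhr2 was highest in mesothelium in the oviduct, whereas in the uterus mesenchyme and smooth muscle stood above it. Rxfp1 and Cnr1 were highest in uterine mesenchyme. Agtr2 was highest in pericytes and oviduct mesenchyme, and Oxtr was near the limit of detection everywhere. Epithelium held little of any of them: its library with the highest level of any receptor was at 2.74 CPM, for Agtr2.

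**Figure D1:**
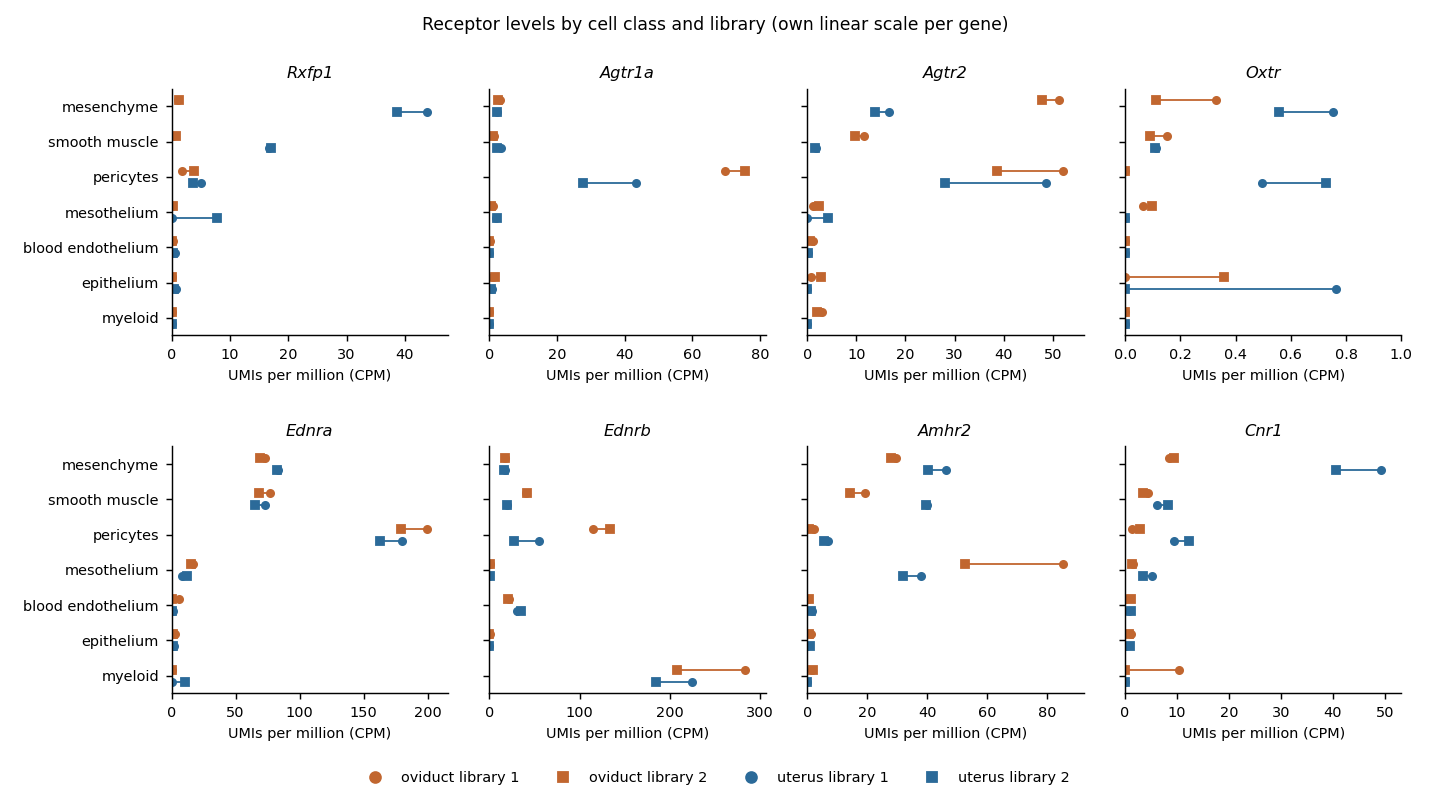
Level of each receptor (x axis, CPM, linear and separate for each gene) in 7 cell classes (y axis). Each point is 1 library, a circle for library 1 and a square for library 2, orange for oviduct and blue for uterus, and a line joins the 2 libraries of an organ. The uterine points of Rxfp1 and Cnr1 in mesenchyme stand apart from the oviduct points, whereas those of Ednra in pericytes overlap.

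Organ differences are given as log2 fold changes, oviduct over uterus, with the standard error (SE) of the edgeR fit across all genes of a class. These differences carry no test. The receptors' libraries did not overlap between the organs for 8 of 8 receptors in mesenchyme, beside 71.9% of all tested genes, for 6 of 7 in smooth muscle (65.1%), 4 of 6 in pericytes (46.8%) and 4 of 5 in mesothelium (52.6%). The count was 1 of 1 in blood endothelium (42.0%) and 0 of 1 in myeloid cells (37.8%), and 0 receptors had enough counts in epithelium (64.5%). Since the receptors were chosen with these differences in view, nothing is read from these counts.

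**Figure D2:**
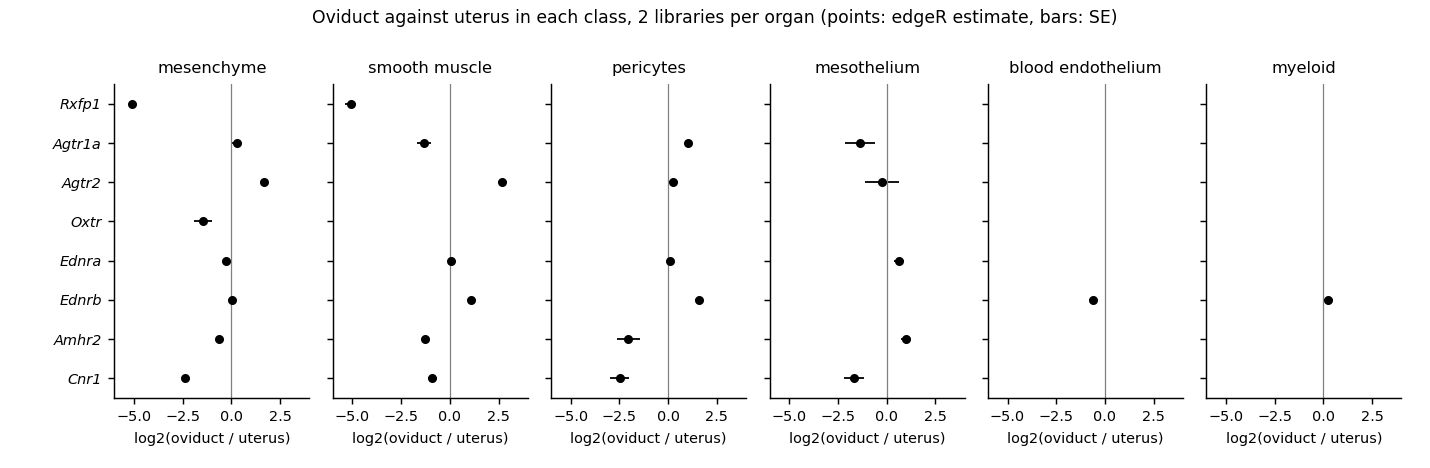
Log2 ratio of oviduct to uterus (x axis) for each receptor with enough counts (y axis), in 6 classes. Points are edgeR estimates from 2 libraries per organ and bars are standard errors, and a value left of 0 is higher in uterus. Rxfp1 lies near -5 in mesenchyme and smooth muscle, and Amhr2 lies left of 0 in both and right of 0 in mesothelium.

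Rxfp1, the receptor through which relaxin remodels the reproductive tract, was a transcript of uterine stroma. In mesenchyme it stood at 1.13 and 1.34 CPM in the oviduct libraries (48 and 36 UMIs) and at 43.9 and 38.7 CPM in the uterine libraries (1052 and 1042 UMIs). Smooth muscle had 0.305 and 0.715 CPM in oviduct and 16.6 and 17.0 CPM in uterus. The organs did not overlap in either class. The log2 fold change was -5.12 (SE 0.13) in mesenchyme and -5.08 (SE 0.28) in smooth muscle. Without oviduct replicate 2 the smooth muscle value was -5.74. Pericytes held 1.75 to 4.96 CPM with overlapping organs, and mesothelium 3 UMIs in oviduct and 0 and 11 in the uterine libraries. Blood endothelium and epithelium stayed at 0.764 CPM or below, and myeloid cells had 0 UMIs in all 4 libraries. After 2000 UMIs were drawn from each cell, 7.03% and 6.89% of uterine mesenchymal cells had an Rxfp1 UMI, against 0.127% and 0.174% in oviduct. The unthinned shares were 31.0%, 29.4%, 1.02% and 0.874% in the same order. In epithelium 0 of 38 to 219 cells had an Rxfp1 UMI at that depth, which allows up to 1.37% to 7.89% of cells with a UMI at that depth and sets no limit on the share of expressing cells. The unthinned epithelial shares were 0.730% and 0.388% in oviduct and 1.85% and 1.41% in uterus.

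Within the uterine mesenchyme Rxfp1 was uneven. It reached 97.0 and 87.9 CPM in cluster 14, led by Pcdh10, A2m and Neto2, and 60.9 and 52.6 CPM in cluster 4, the main uterine cluster, marked by Plac8 and Tex15. In cluster 13, led by Tcf21, Ogn and Lum, it was at 7.12 and 4.93 CPM. Clusters 14 and 4 thus stood above cluster 13 in both uterine libraries. Cluster 7, of dividing cells marked by Cenpf and Aspm, drew on all 4 libraries and had 0 and 0 Rxfp1 UMIs in oviduct and 33.9 and 20.8 CPM in uterus. In the clusters shared by all libraries (2, 7 and 13) the log2 fold change was -4.56. The organs filled these clusters unequally: cluster 13 gave 30 of 251 and 31 of 235 of those oviduct cells and 198 of 381 and 269 of 455 of the uterine cells. Part of the low oviduct signal came from few cells: 18 of 48 UMIs in oviduct replicate 1 and 15 of 36 in replicate 2 lay in the 80 and 66 cells found in uterine clusters. Those cells had 48.4 and 57.6 CPM of Hoxa11, a homeobox gene of the uterine part of the duct. The other oviduct mesenchyme had 1.52 and 1.23 CPM, and uterine mesenchyme outside oviduct clusters 156.8 and 142.0 CPM. Hoxa11 is a leading gene of clusters 4 and 14, so picking cells by cluster favoured it. Hoxc8 stood at 15.6 and 34.6 CPM in those cells, 187.4 and 189.6 CPM in the other oviduct mesenchyme and 4.66 and 3.85 CPM in uterus. Without those cells oviduct Rxfp1 stood at 0.724 and 0.810 CPM.

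Relaxin RNA itself was scarce. Rln1, which encodes it, had 27 and 13 UMIs in oviduct and 15 and 14 in uterine mesenchyme, with a log2 fold change of -0.04 (SE 0.36, edgeR adjusted p = 0.964). Its highest library level was 2.45 CPM, in uterine epithelium, from 5 UMIs.

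**Figure D3:**
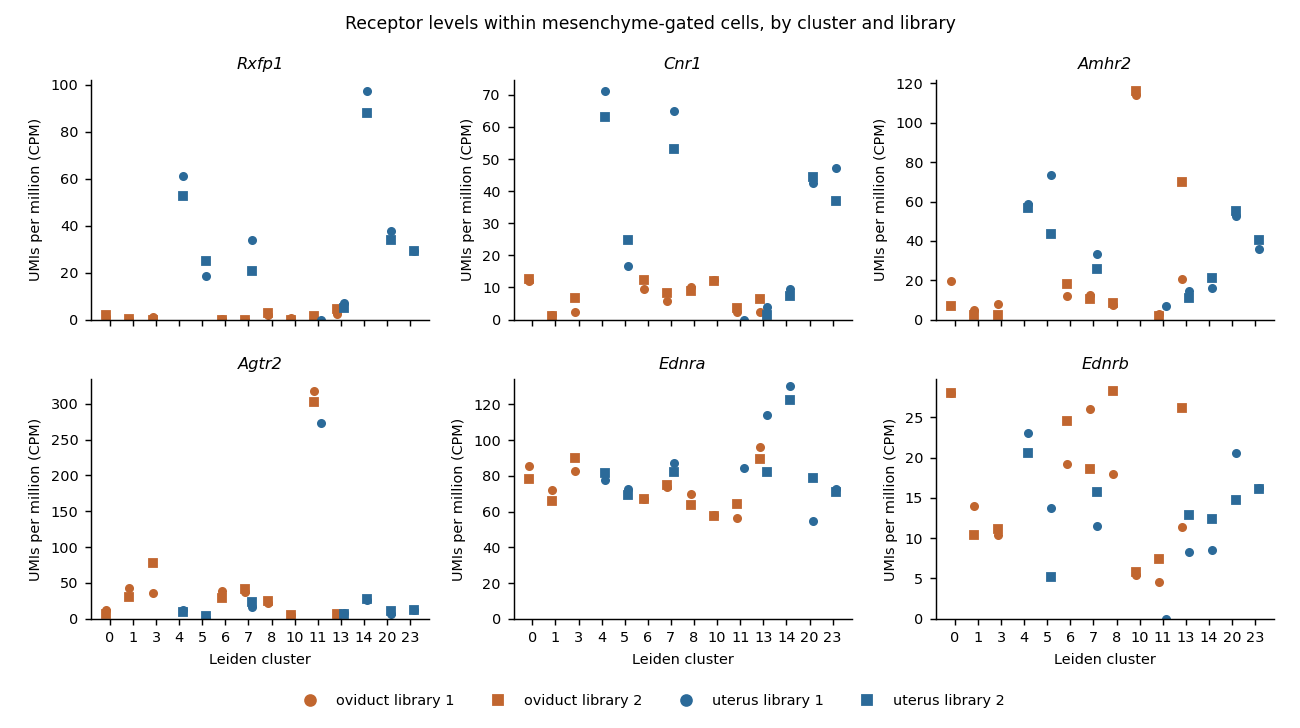
Levels of 6 receptors (y axis, CPM, linear) in mesenchyme-gated cells of each Leiden cluster (x axis), for sums of at least 20 cells and 400000 UMIs. Points are libraries (circle for library 1, square for library 2, orange for oviduct, blue for uterus). Rxfp1 peaks in cluster 14, Cnr1 in cluster 4, Amhr2 in cluster 10 and Agtr2 in cluster 11, while Ednra stays between 54.9 and 130.2 CPM.

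Agtr1a, the angiotensin receptor that couples to vessel contraction, was a pericyte transcript. Pericytes had 69.6 and 75.6 CPM in oviduct and 43.2 and 27.6 CPM in uterus. The log2 fold change was 1.03 (SE 0.18), and 0.72 to 1.34 when single libraries were left out. Every pericyte library lay above every library of the next class, mesenchyme, at 2.26 to 3.12 CPM. The thinned share of pericytes with a UMI was 13.4% and 15.1% in oviduct and 8.92% and 4.74% in uterus (unthinned 45.6%, 42.6%, 37.5% and 24.6%), and at most 0.457% in epithelium. In smooth muscle the low levels ran the other way, with 17 and 11 UMIs in oviduct (1.30 and 0.983 CPM) and 31 and 21 UMIs in uterus (3.48 and 2.27 CPM). That smooth muscle difference, -1.33 (SE 0.36), was -0.67 when classes were taken from Leiden clusters, and -1.60 to -1.02 when single libraries were left out. Oviduct pericytes also carried more smooth muscle marker RNA, a summed 4415 and 3411 CPM over 10 markers against 2311 and 1956 CPM in uterus. The part of those markers in the pericyte differences was not tested.

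Agtr2, the receptor of fetal mesenchyme, was high in pericytes of both organs and in oviduct stroma. Mesenchyme had 51.3 and 47.8 CPM in oviduct and 16.6 and 13.8 CPM in uterus. Smooth muscle had 11.5 and 9.65 CPM in oviduct and 1.69 and 1.51 CPM in uterus. Neither class overlapped between organs, and the log2 fold changes were 1.67 (SE 0.10) and 2.70 (SE 0.25). Pericytes, at 52.1 and 38.6 CPM in oviduct and 48.6 and 28.0 CPM in uterus, overlapped between organs, with a log2 fold change of 0.26 (SE 0.23). Without single libraries it ran from -0.11 to 0.67. The thinned share in mesenchyme was 7.80% and 7.18% in oviduct and 2.63% and 2.41% in uterus (unthinned 19.7%, 16.4%, 12.2% and 11.7%). In epithelium it was at most 0.457%.

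One stromal cluster held most of the oviduct Agtr2. Cluster 11, led by the neurofilament genes Nefm and Nefl and by Pi15, made up 10.1% and 9.32% of the oviduct mesenchyme and held 60.8% and 60.7% of its Agtr2 UMIs. Its level was 318.2 and 302.7 CPM in oviduct. The 37 and 19 uterine cells in that cluster stood at 272.7 and 179.1 CPM. Without the cluster, chosen for its level, mesenchyme still had 22.3 and 20.8 CPM in oviduct and 11.7 and 12.3 CPM in uterus. Agtr1a was also higher there than in the other mesenchymal clusters of the oviduct, at 11.3 and 11.3 CPM.

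Of the rest of the angiotensin system, Agt (angiotensinogen, the precursor) was an oviduct transcript in stroma, at low level. Oviduct mesenchyme had 74 and 22 Agt UMIs and uterine mesenchyme 1 and 0, a ratio of 70.4 (95% counting interval 12.3 to 2808). Smooth muscle had 23 and 33 UMIs in oviduct and 0 in both uterine libraries, so it was at least 13.9-fold higher in oviduct (floor of 3 counts over the organ). Agt had enough counts for the fit only through the oviduct libraries, so no p is given for it, nor for mesenchymal Ace for the same reason. Ace, which makes angiotensin II, stood at 1.081 and 1.376 CPM in oviduct mesenchyme and 0.375 and 0.223 CPM in uterine mesenchyme, from 46, 37, 9 and 6 UMIs (log2 fold change 1.98, SE 0.37). In blood endothelium, where Ace is best known, it stood at 6.97 to 14.2 CPM and did not pass the test (edgeR adjusted p = 0.254). Mtus1, which binds the Agtr2 protein, was higher in oviduct pericytes, at 35.9 and 37.0 CPM against 16.9 and 13.8 CPM (log2 fold change 1.22, SE 0.21, edgeR adjusted p = 0.00183). The 14 listed genes of the system were counted where both libraries of each organ reached the count filter. Of these, 7 of 8 passed the test (edgeR adjusted p under 0.05) in mesenchyme, where 42.4% of all such genes did. In smooth muscle 1 of 7 passed (28.3% of such genes), in pericytes 3 of 8 (4.56%) and in epithelium 1 of 6 (20.7%). DESeq2 called 5, 1, 2 and 0 of the same genes. Of all such genes it called 4370 of 13675, 2044 of 12051, 216 of 9318 and 1260 of 10583, in the same order. edgeR and DESeq2 both called 0 of 7 in mesothelium, 0 of 6 in blood endothelium and 0 of 2 in myeloid cells. Of all such genes edgeR called 7.91%, 2.81% and 0.342%, and DESeq2 615 of 11470, 132 of 10392 and 17 of 4097. At an unadjusted p under 0.05 edgeR gave 1, 1 and 0 of the listed genes.

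Oxtr, the receptor for oxytocin, was barely detected. Mesenchyme held 14 and 3 UMIs in oviduct and 18 and 15 in uterus, which is 0.329 and 0.112 CPM against 0.751 and 0.557 CPM. Smooth muscle, where the receptor acts in the adult uterus, had 2, 1, 1 and 1 UMIs, and blood endothelium and myeloid cells had 0 in all 4 libraries. The mesenchymal log2 fold change of -1.45 (SE 0.47) became -2.54 when oviduct replicate 1 was left out and -1.001 without oviduct replicate 2. The uterine UMIs were not spread evenly: 9 of 18 and 9 of 15 lay in cluster 14, the cluster with the highest Rxfp1, which held 6.71% and 10.9% of the uterine mesenchyme. At 2000 UMIs per cell at most 0.122% of mesenchymal cells had an Oxtr UMI (unthinned 0.125% to 0.8902%). Oxt, the hormone gene, had 36 UMIs in oviduct and 18 in uterine mesenchyme (log2 fold change 0.53, SE 0.50), and only the oviduct libraries both reached the count filter, so no p is given.

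Ednra, the main contractile endothelin receptor, was high in pericytes of both organs and differed little between them. Pericytes had 199.7 and 179.2 CPM in oviduct and 180.2 and 162.9 CPM in uterus, with overlapping organs and a log2 fold change of 0.11 (SE 0.12). Smooth muscle had 76.6 and 67.9 CPM in oviduct and 72.6 and 65.2 CPM in uterus, again overlapping. Mesenchyme had 72.7 and 69.1 CPM in oviduct and 82.7 and 82.3 CPM in uterus. That difference was small, -0.26 (SE 0.08), although the organs did not overlap. It ran from -0.31 to -0.21 when single libraries were left out. Mesenchyme and smooth muscle overlapped each other, and both lay below every pericyte library. Mesothelium had 16.9 and 14.8 CPM in oviduct and 8.50 and 12.0 CPM in uterus (0.64, SE 0.27). The thinned share of pericytes with an Ednra UMI was 35.0%, 31.7%, 31.2% and 30% (unthinned 81.2% to 86.1%), against 12.8% to 16.9% of mesenchyme and 0 to 1.68% of epithelium.

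Ednrb, the endothelin receptor that also clears the peptide, had its highest level in myeloid cells. These had 283.5 and 208.3 CPM in oviduct and 224.5 and 184.5 CPM in uterus, from 28 to 72 cells per library, and the organs overlapped. Pericytes had 115.2 and 133.3 CPM in oviduct and 54.6 and 27.6 CPM in uterus. Smooth muscle had 40.5 and 41.5 CPM in oviduct and 19.0 and 19.3 CPM in uterus. In both classes the oviduct was higher without overlap, with log2 fold changes of 1.60 (SE 0.21) in pericytes and 1.07 (SE 0.10) in smooth muscle. Without uterus replicate 1 the pericyte value was 2.11, and without uterus replicate 2 it was 1.15. Blood endothelium ran the other way, at 21.2 and 20.6 CPM in oviduct and 31.0 and 35.0 CPM in uterus (log2 fold change -0.64, SE 0.18). Mesenchyme was level at 17.6 and 17.6 CPM in oviduct and 17.5 and 16.2 CPM in uterus (log2 fold change 0.02, SE 0.09). That mesenchymal value was 0.83 in the clusters shared by all libraries. These held 7.79% to 26.0% of the class, and the organs filled them unequally. Epithelium and mesothelium stood at 0.707 CPM or below. The thinned share of pericytes with an Ednrb UMI was 19.1% and 22.3% in oviduct and 10.8% and 7.89% in uterus (unthinned 55.7%, 51.1%, 30% and 24.1%), and at most 0.840% in epithelium.

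**Figure D4:**
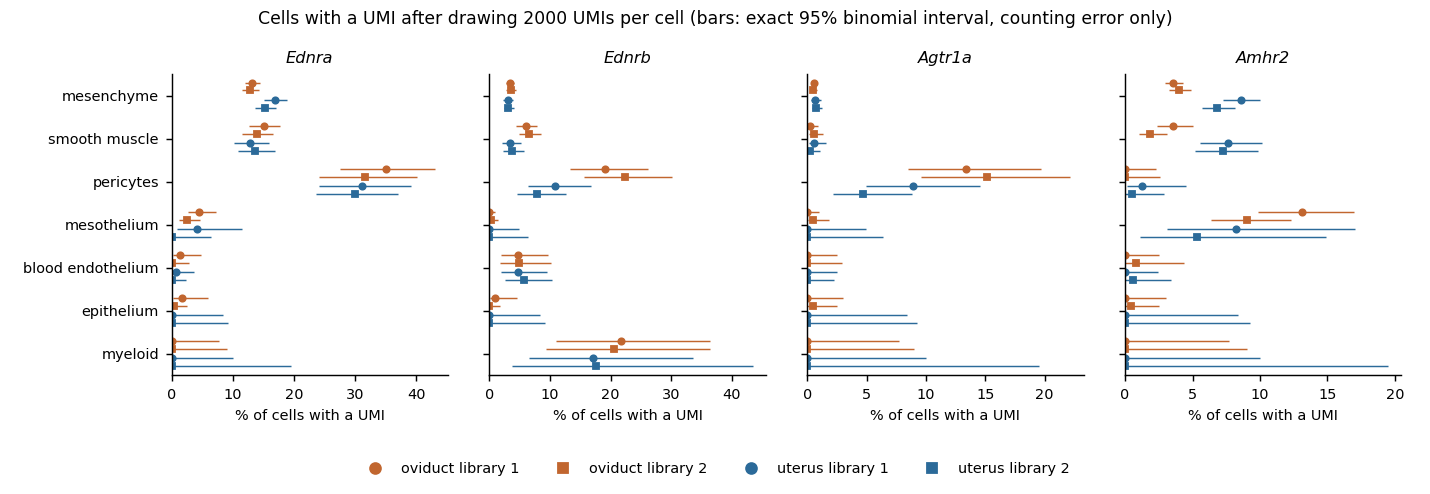
Share of cells with at least 1 UMI of Ednra, Ednrb, Agtr1a and Amhr2 (x axis, percent) by class (y axis), after 2000 UMIs were drawn from each cell. Points are libraries (circle for library 1, square for library 2, orange for oviduct, blue for uterus) and bars are exact 95% binomial intervals, which cover counting error only. Ednra marks 30% to 35.0% of pericytes, and myeloid intervals are wide because 17 to 46 cells were deep enough.

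The 2 endothelin receptors were measured in the same cells at 5000 UMIs per cell. Of 84, 75, 83 and 96 pericytes with an Ednra UMI (oviduct 1 and 2, uterus 1 and 2), 28.6%, 38.7%, 20.5% and 15.6% also had an Ednrb UMI. Among the pericytes without one the shares were 43.1%, 34.5%, 20.6% and 12.2%. The sign of the difference varied between libraries.

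The endothelin ligands had separate sources. Edn1 was highest in epithelium, at 101.3 and 99.97 CPM in oviduct and 59.6 and 29.9 CPM in uterus (log2 fold change 1.37, SE 0.23, edgeR adjusted p = 0.000291). Blood endothelium followed with 57.5 and 49.0 CPM in oviduct and 22.3 and 19.8 CPM in uterus (log2 fold change 1.38, SE 0.17, edgeR adjusted p = 4.82e-05). Both classes were higher in oviduct in each library. The epithelial call was lost in cluster 19, the only cluster with at least 20 epithelium-gated cells in every library (edgeR adjusted p = 0.281). Edn2 was a mesothelial transcript, at 123.1 and 156.2 CPM in oviduct and 46.4 and 26.9 CPM in uterus (log2 fold change 1.92, SE 0.20, edgeR adjusted p = 8.76e-05). Edn3 was stromal, at 18.5 and 19.1 CPM in oviduct mesenchyme and 5.84 and 6.83 CPM in uterine mesenchyme (log2 fold change 1.52, SE 0.11, edgeR adjusted p = 7.85e-07). In smooth muscle Edn3 stood at 15.4 to 19.6 CPM and did not pass the test (edgeR adjusted p = 0.945). In mesenchyme Edn2 stood at 5.26 and 6.77 CPM in oviduct and 1.71 and 1.52 CPM in uterus (1.84, SE 0.20, edgeR adjusted p = 1.82e-05). In the clusters shared by all libraries the mesenchymal Edn2 value was -0.80 and that of Edn3 0.36, neither called.

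Enzymes that process and degrade endothelins were measured in the same stroma. Ece1, which cleaves big endothelin to the active peptide, was higher in uterus, at 28.8 and 27.5 CPM against 18.4 and 17.3 CPM in mesenchyme (log2 fold change -0.70, SE 0.09, edgeR adjusted p = 5.68e-05). Smooth muscle showed 29.2 and 23.3 CPM in uterus against 15.04 and 13.7 CPM in oviduct (-0.89, SE 0.14, edgeR adjusted p = 0.000271). Ece1 was highest in blood endothelium, at 179.5 to 239.2 CPM, where it did not pass the test (edgeR adjusted p = 0.470). Mme (neprilysin, which degrades endothelins and other peptides) was higher in uterus as well, with log2 fold changes of -1.02 (SE 0.09, edgeR adjusted p = 5.50e-06) in mesenchyme and -1.96 (SE 0.12, edgeR adjusted p = 5.65e-08) in smooth muscle. Both smooth muscle calls were lost in cluster 7, the only cluster shared by all libraries there, where the adjusted p was 0.0805 for Ece1 and 0.193 for Mme.

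**Figure D5:**
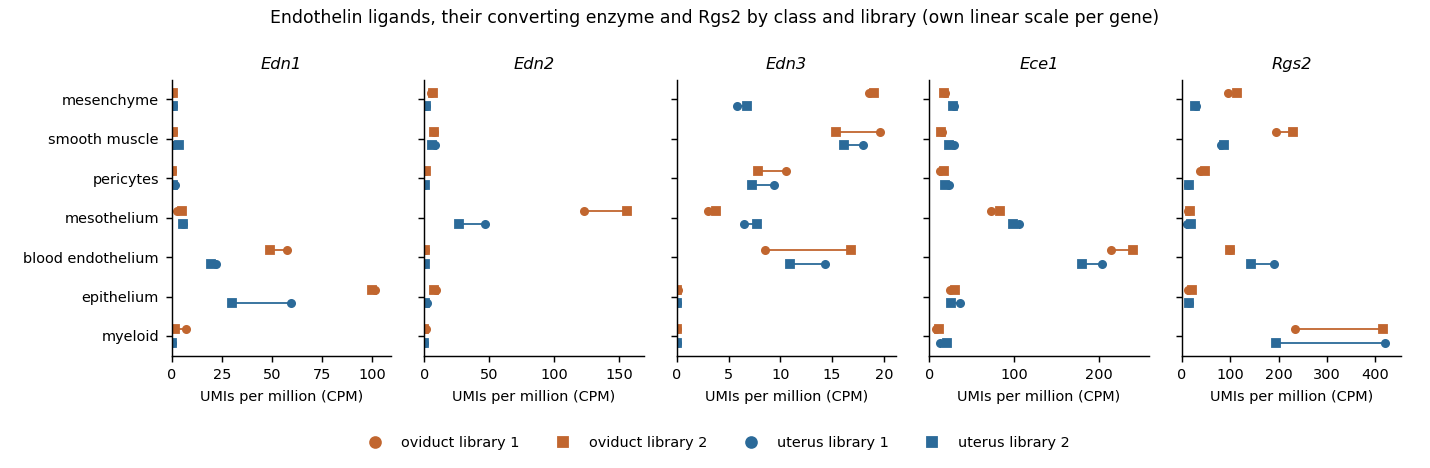
Levels of the endothelin genes Edn1, Edn2 and Edn3, the converting enzyme Ece1 and the G protein regulator Rgs2 (x axes, CPM, linear and separate for each gene) by class (y axis). Points are libraries as coloured in the key and lines join the 2 libraries of an organ. Edn1 is highest in epithelium and blood endothelium, Edn2 in mesothelium, and Rgs2 is higher in oviduct stroma and lower in oviduct endothelium.

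Amhr2, the receptor that passes the Müllerian regression signal, was found in mesothelium and stroma, with opposite organ orders. Mesothelium had 85.4 and 52.6 CPM in oviduct and 37.9 and 31.8 CPM in uterus. Mesenchyme had 29.6 and 28.0 CPM in oviduct and 46.4 and 40.3 CPM in uterus, and smooth muscle 19.2 and 14.1 CPM in oviduct and 39.9 and 39.5 CPM in uterus. Pericytes had 5, 1, 14 and 15 UMIs. Each of the 3 classes kept the organs' libraries apart. The log2 fold changes were 0.99 (SE 0.24) in mesothelium, -0.63 (SE 0.09) in mesenchyme and -1.27 (SE 0.14) in smooth muscle. With single libraries left out the mesothelial value ran from 0.59 (without oviduct replicate 1) to 1.29. Uterine mesothelium was sparse, with 73 and 56 cells, and carried more smooth muscle marker RNA, a summed 1642 and 1446 CPM over 10 markers against 692.4 and 599.5 CPM in oviduct. The mesenchyme list was also higher in uterine mesothelium, at 9031 and 7599 CPM against 6004 and 5268 CPM in oviduct. The granulosa list was lower in oviduct mesothelium, at 24.1 and 20.9 CPM, than in uterine mesothelium, at 34.0 and 34.7 CPM. Granulosa cells of the ovary also carry Amhr2. The part of these markers in the Amhr2 differences was not tested. The thinned share of mesothelial cells with an Amhr2 UMI was 13.1% and 9.02% in oviduct and 8.22% and 5.36% in uterus (unthinned 62.3%, 51.3%, 39.7% and 48.2%).

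In the oviduct mesenchyme Amhr2 was concentrated in 1 cluster. Cluster 10, marked by Angptl7, Zim1 and Hsd11b2, made up 14.5% and 15.1% of the cells and held 60.6% and 66.8% of the Amhr2 UMIs, at 114.2 and 116.0 CPM. Without it, oviduct mesenchyme was at 13.8 and 11.1 CPM. In uterus the main cluster 4 stood at 58.6 and 56.9 CPM and cluster 13 at 14.6 and 10.7 CPM. In the clusters shared by all libraries, of which cluster 13 was mostly uterine, the mesenchymal log2 fold change was -0.21. Amh, the ligand, had 7 UMIs in oviduct and 5 in uterine mesenchyme, and 0 in pericytes of all 4 libraries. Of the other genes listed for this hormone, Smad9 was higher in uterine mesothelium, at 28.8 and 19.1 CPM against 2.92 and 4.06 CPM (log2 fold change -2.80, SE 0.31, edgeR adjusted p = 0.000112). Amhr2 had only 2 and 2 UMIs in oviduct and 6 and 7 in uterine blood endothelium. In epithelium it had 8 and 5 in oviduct and 0 and 2 in uterus. A link of the Smad differences to Amhr2 was not tested. Smad7, which inhibits the pathway, was higher in oviduct blood endothelium (log2 fold change 0.97, SE 0.16, edgeR adjusted p = 0.000985), a call lost without either uterine replicate (lowest value 0.77). Smad6, another inhibitor, was higher in uterine epithelium (log2 fold change -0.84, SE 0.25, edgeR adjusted p = 0.0208) and lost its call with DESeq2, in cluster 19 alone, and without uterus replicate 1 or either oviduct replicate (-0.39 to -1.15 over all alternatives).

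Cnr1, the cannabinoid receptor, was also highest in uterine mesenchyme. It stood at 8.46 and 9.37 CPM in oviduct mesenchyme and at 49.2 and 40.5 CPM in uterine mesenchyme, with a log2 fold change of -2.38 (SE 0.11). Pericytes had 1.31 and 2.80 CPM in oviduct and 9.43 and 12.4 CPM in uterus (log2 fold change -2.49, SE 0.48), from 3, 5, 19 and 34 UMIs, and -3.03 to -2.03 when single libraries were left out. Smooth muscle had 4.51 and 3.40 CPM in oviduct and 6.18 and 8.33 CPM in uterus, and that difference, -0.89 (SE 0.24), was -2.12 with classes from Leiden clusters. Without single libraries it ran from -1.13 to -0.64. Mesothelium had 1.46 and 1.26 CPM in oviduct and 5.23 and 3.54 CPM in uterus (-1.67, SE 0.52), from 23, 13, 8 and 5 UMIs. Free RNA was estimated to supply at most 2.64%, 0.286%, 4.84% and 34.0% of those UMIs. In all 4 classes both uterine libraries lay above both oviduct libraries. The thinned share of mesenchymal cells with a UMI was 1.59% and 1.83% in oviduct and 6.78% and 6.18% in uterus (unthinned 7.91%, 7.32%, 33.9% and 31.4%), and 0 in epithelium of all 4 libraries (unthinned 0% to 3.65%).

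Within the uterine mesenchyme Cnr1 had a different order of clusters from Rxfp1. Cluster 4 had 71.1 and 63.2 CPM of Cnr1, and cluster 14, the highest in Rxfp1, had 9.36 and 7.33 CPM. Cluster 13 had 3.95 and 1.37 CPM. Dividing cells of cluster 7, which both organs filled, had 65.0 and 53.1 CPM in uterus and 5.64 and 8.27 CPM in oviduct. That cluster is marked by genes of dividing cells, and the stromal types within it were not told apart. At 5000 UMIs per cell, 19.2% and 16.6% of the 260 and 247 uterine cells with an Rxfp1 UMI also had a Cnr1 UMI, beside the 17.3% and 13.6% among the cells without one. Amhr2 UMIs were found in 23.2% and 17.2% of uterine cells with a Cnr1 UMI and in 17.1% and 13.5% of those without.

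The 12 listed cannabinoid genes were counted where both libraries of each organ reached the count filter. In epithelium 3 of 6 passed the test (20.7% of all such genes) and in mesenchyme 3 of 8 (42.4%). In smooth muscle 0 of 8 passed (28.3%), in pericytes 0 of 3 (4.56%) and in mesothelium 0 of 7 (7.91%). Blood endothelium gave 0 of 6 (2.81%) and myeloid cells 0 of 2 (0.342%). At an unadjusted p under 0.05 these last 5 classes gave 0, 0, 1, 2 and 0. The 3 epithelial genes were Faah, Napepld and Abhd6, the last named after its values were seen. Faah, which degrades anandamide, was higher in uterine epithelium, at 35.2 and 31.8 CPM against 14.1 and 11.9 CPM (log2 fold change -1.23, SE 0.22, edgeR adjusted p = 0.000589). Napepld, which makes anandamide, was higher in oviduct epithelium, at 17.9 and 21.8 CPM against 3.06 and 3.92 CPM (log2 fold change 2.60, SE 0.35, edgeR adjusted p = 3.60e-05). Both genes kept the organs' libraries apart, and uterine Napepld lay near the count filter, 2.20 CPM in epithelium, from few UMIs. Mgll, which degrades 2-arachidonoylglycerol, was higher in oviduct mesenchyme at low level, 5.24 and 7.18 CPM against 4.09 and 3.19 CPM (log2 fold change 0.72, SE 0.19, edgeR adjusted p = 0.00968). The Mgll call was lost without uterus replicate 2 (adjusted p = 0.0631, the highest over all alternatives), and in the shared clusters the value was -1.12 and called. Uterine epithelium was shallow, with a median of 5279 and 2117 UMIs per cell against 22313 and 12606 in oviduct, and the organs filled different epithelial clusters. Cluster 18 held 88 and 154 oviduct cells and 0 uterine cells. Cluster 19, which both organs filled, held 21.9% and 7.75% of the oviduct epithelium and 66.7% and 36.6% of the uterine. Cluster 22, also named epithelium, was led by Hba-a1 and Hbb-bs, with a median of 1637.5 UMIs per cell. It held 49 and 173 oviduct cells and 51 and 111 uterine cells, gated or not. Mesothelial markers in epithelium also moved, at 238.2 and 224.3 CPM in oviduct and 73.4 and 42.6 CPM in uterus. Blood endothelial markers ran the same way, at 78.1 and 55.4 CPM against 27.5 and 26.4 CPM, as did the lymphoid and adipocyte lists at lower levels. The myeloid, smooth muscle and pericyte lists were higher in uterus. Within cluster 19 Faah was -1.30 (SE 0.47, edgeR adjusted p = 0.353), and Napepld and Gnai1 had too few counts for the fit. Fewer listed genes passed the test there than over all epithelial cells. The share of all genes called there is not given, so nothing is read from that fall. The part of depth, clusters and markers in the epithelial differences was not tested.

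The rest of the pathways was described with a list of genes chosen with results known. Across the 80 listed genes of the receptors' pathways, of which 78 were in the files, counts are given beside the share of all genes, and nothing is read from them. In mesenchyme 34 of 60 tested were called (28 higher in oviduct, 6 in uterus), in smooth muscle 17 of 50 (12 and 5), in pericytes 8 of 42 (7 and 1), in mesothelium 8 of 50 (4 and 4), in blood endothelium 4 of 41 (3 and 1) and in epithelium 13 of 46 (9 and 4). These shares were 56.7%, 34.0%, 19.0%, 16.0%, 9.76% and 28.3%, beside 42.9%, 29.6%, 4.93%, 8.39%, 2.99% and 24.5% of all genes, and no test set them against each other. Where both organs reached the count filter 32 of 53 were called in mesenchyme, 16 of 48 in smooth muscle, 7 of 40 in pericytes, 8 of 47 in mesothelium, 4 of 41 in blood endothelium and 12 of 43 in epithelium. In the same order, 42.4%, 28.3%, 4.56%, 7.91%, 2.81% and 20.7% of all such genes were called. Of all genes, 22.9% were higher in oviduct and 20% in uterus in mesenchyme, 15.9% and 13.8% in smooth muscle, 3.25% and 1.68% in pericytes, 4.85% and 3.54% in mesothelium, 2.30% and 0.691% in blood endothelium and 14.8% and 9.64% in epithelium. Pericyte and endothelial counts moved when single libraries were left out, in fits that leave 1 library in an organ. In myeloid cells edgeR called 0 of 19 genes (0 at an unadjusted p under 0.05), and DESeq2 also called 0. Beside these, edgeR called 0.457% of all genes (0.334% higher in oviduct and 0.123% in uterus). The median log2 fold change of the list was 0.26 in mesenchyme and 0.13 in smooth muscle. Restricted to the clusters shared by all libraries, 13 of 48 were called in mesenchyme, 3 higher in oviduct and 10 in uterus, where 21.2% of all genes were called (12% and 9.25%).

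The genes shared by the receptors' G protein signalling included 1 regulator called in 4 classes. Rgs2, which shortens signals from receptors that couple to Gq, was higher in oviduct mesenchyme (95.9 and 114.5 CPM against 28.8 and 26.6 CPM, log2 fold change 1.88, SE 0.10, edgeR adjusted p = 3.99e-08). It was higher in oviduct smooth muscle (1.31, SE 0.10, edgeR adjusted p = 5.65e-07) and pericytes (1.52, SE 0.21, edgeR adjusted p = 0.000274). In blood endothelium Rgs2 was lower in oviduct, at 99.9 and 99.4 CPM against 191.3 and 142.0 CPM (-0.71, SE 0.16, edgeR adjusted p = 0.0119), a call lost without oviduct replicate 2 or either uterine replicate (smallest value -0.52). Itpr1, the calcium release channel, stood at 95.5 and 104.6 CPM in oviduct smooth muscle and 48.3 and 42.8 CPM in uterine smooth muscle (log2 fold change 1.11, SE 0.10, edgeR adjusted p = 2.45e-06). Plcb4, a phospholipase that acts before it, was higher there too (1.01, SE 0.16, edgeR adjusted p = 0.000293) and in oviduct blood endothelium (0.64, SE 0.16, edgeR adjusted p = 0.0222, lost with DESeq2, with library totals in place of TMM, and without oviduct replicate 2 or either uterine replicate, lowest 0.55).

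Other members of the shared list had opposite organ orders by class. Plcb1 was higher in oviduct pericytes (log2 fold change 1.30, SE 0.30) and in uterine mesothelium (-1.40, SE 0.27), with edgeR adjusted p = 0.0164 and 0.00659. The pericyte call was lost with DESeq2 and without oviduct replicate 1 or uterus replicate 2 (lowest 1.04), and the mesothelial call without oviduct replicate 2 or uterus replicate 1 (smallest value -1.27). Gnai1, an inhibitory G protein subunit, was lower in oviduct pericytes (-0.62, SE 0.16, edgeR adjusted p = 0.0330) and higher in oviduct epithelium (2.89, SE 0.31, edgeR adjusted p = 2.98e-06). The pericyte Gnai1 call was lost with DESeq2 and without replicate 1 of either organ (smallest value -0.49). Mylk, the kinase that starts smooth muscle contraction, was higher in oviduct epithelium, at 67.1 and 88.0 CPM against 3.06 and 2.94 CPM (4.82, SE 0.32, edgeR adjusted p = 1.46e-08). Its uterine level lay near the count filter, 2.20 CPM in epithelium, and rests on few UMIs. In cluster 19 alone the value was 4.46. Uterine Mylk UMIs there were few, so no p is given for it. In mesothelium Mylk was higher in uterus (-2.44, SE 0.19, edgeR adjusted p = 8.75e-06), in the same libraries whose smooth muscle marker sum was higher. Itpr2 was higher in oviduct mesothelium (1.77, SE 0.28) and lower in oviduct epithelium (-1.05, SE 0.20), with edgeR adjusted p = 0.00163 and 0.000714, and the epithelial call was lost without oviduct replicate 2 and in cluster 19 alone (-0.13). Itpr3 was higher in oviduct mesothelium (1.37, SE 0.19, edgeR adjusted p = 0.000748). Gnas, the stimulatory subunit, was higher in oviduct mesenchyme (0.60, SE 0.08, edgeR adjusted p = 0.000152), a call lost in the shared clusters (0.17).

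Genes with the most similar levels were ranked by Pearson correlation of log2(CPM + 1) over the 28 class and library sums, among 8937 genes. These sums share libraries and cells, so the values are descriptions. For Rxfp1 they were Hoxa11 (r = 0.85), Col6a4 (0.84) and Rorb (0.83), and for Cnr1 Hsd11b2 (0.87), Tmem167 (0.85) and Frem1 (0.84). For Agtr1a they included Gucy1b1 (0.96) and Ndst3 (0.95), and for Agtr2 Ngfr (0.94) and Pi15 (0.93). Ednra came closest to Galnt16 (0.94), Sema5a (0.92) and Lhfp (0.92), and Ednrb to Ehbp1l1 (0.91), Sdc3 (0.91) and Wipf1 (0.89). For Amhr2 they were Adgrb2 (0.93), Adamts19 (0.92) and Tulp2 (0.92). Oxtr was under 20 CPM in every class and was not ranked.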

How the data were processed

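Single-cell RNA libraries (Chromium 3′ v3.1, per the labels' protocols) were deposited as raw UMI counts. The matrix of called barcodes came from Cell Ranger 6.0.1 and that of all barcodes from Cell Ranger 4, per the file headers. The submitters' processing notes name mm10 and Seurat 4.2.3, and the gene annotation is not given in the sources used here. Cells were kept from 500 detected genes upward and up to 15% mitochondrial UMIs, and doublets were removed by rank of the Scrublet score at 0.8% per 1000 barcodes, since its automatic threshold marked 0 to 2 cells per library. Each cell was assigned by scores from 15 marker lists without the 8 receptors (lineage score at least 0.3, with the second under 0.5 times it and at least 3 markers detected). Stromal cells were smooth muscle at a smooth muscle score of 0.4 or more and mesenchyme under 0.3. Of 20164 cells, 3030 stayed unassigned, and 854 erythroid cells were left out because free RNA could supply 31.9% to 69.9% of their UMIs. Free RNA was bounded from uncalled droplets of 1 to 100 UMIs. Counts were summed per library and class and tested with edgeR 4.0.16 (quasi-likelihood, TMM, filterByExpr, Benjamini-Hochberg over all genes of a class, adjusted p under 0.05) in R 4.3.3, and DESeq2 1.42.0 served as an alternative. The scripts were tested on simulated data. Clusters came from scanpy 1.11.5 (2000 variable genes, 30 components, 15 neighbours, Leiden resolution 1). CPM divides by all UMIs of the class, so depth sets its precision: summed UMIs per class and library ran from 287272 (myeloid) to 42568056 (mesenchyme), and median UMIs per cell from 2117 to 23676. Intervals cover counting error only.

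The members and gene lists were chosen with earlier results of these data known. Named genes are the 8 receptors, the 3 largest called differences per direction in each class among listed pathway genes averaging 10 CPM or more over the 4 libraries, the ligands Rln1, Agt, Oxt, Edn1, Edn2, Edn3 and Amh and the enzymes Ace, Ece1, Faah and Mgll whatever their result, and for each receptor the 3 genes most alike, of which some are not reported here. Alternatives were another tool, no filter on low counts, library totals, doublets kept, a stricter cell filter, Leiden classes, deep cells only, free RNA subtracted, the replicate block and single libraries left out. Chosen after seeing the data were the crossed block and the restriction to clusters with at least 20 cells of the class in every library.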

Additional observations from a re-analysis of the deposited data

Results flagged for a closer look

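Receptors were flagged here for opposite organ orders in different classes. The rule asked for an edgeR call and for no overlap between the organs' libraries in each class, so neither is a result. Agtr1a was above uterus in oviduct pericytes (log2 fold change 1.03) and below it in oviduct smooth muscle (-1.33). The smooth muscle value rests on 17 and 11 UMIs in oviduct and 31 and 21 in uterus. The difference between the classes was not tested.

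Amhr2 was above uterus in oviduct mesothelium (log2 fold change 0.99) and below it in oviduct mesenchyme (-0.63) and smooth muscle (-1.27), again with every library on its side. The differences between the classes were not tested.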

How the results depend on the processing

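Of 406 alternative log2 fold changes of the receptors, 361 lay within 1 SE of the value given. Of 264 alternative receptor levels, 247 lay within 1 SD of the 4 libraries, and of 56 shares of cells at 5000 UMIs in place of 2000, 22 did. The number of pathway genes called in the clusters shared by all libraries was 13 in mesenchyme (34 over all cells). It was 4 in smooth muscle (17) and 1 in epithelium (13). For smooth muscle and epithelium no share of all genes stands beside these counts, so nothing is read from them. In the shared clusters Edn2 in mesenchyme turned to -0.80 and Mgll to -1.12, with fewer cells than the full class. Where both organs reached the count filter, DESeq2 called 3 of 40 pathway genes in pericytes and 216 of 9318 of all genes. edgeR called 7 of 40 and 425 of 9318. With single libraries left out the counts ran from 23 to 31 for mesenchyme, 15 to 18 for smooth muscle, 5 to 10 for pericytes, 6 to 9 for mesothelium, 1 to 6 for endothelium, 10 to 14 for epithelium and 0 to 0 for myeloid cells. The cause of these changes was not tested. Of 37 named pathway differences that were called, 21 were called under every alternative.

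With the replicate number as a block, the pathway counts were 35 for mesenchyme, 18 for smooth muscle, 10 for pericytes, 10 for mesothelium, 4 for endothelium, 13 for epithelium and 0 for myeloid cells. The labels do not say which number holds which pool, and same-numbered libraries correlated at 0.25 in mesenchyme and -0.46 in myeloid cells. With crossed numbers blood endothelium gave 8. No share of all genes stands beside the block counts, so nothing is read from them. The deep-cell and stricter cell filters left too few myeloid cells for a fit. Each organ had 2 libraries, which limits every SE, and myeloid, mesothelial and epithelial sums of the uterus rest on 28 to 73 cells.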
